A study of Homo sapiens with 6 samples.

Results

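Olfactory receptor genes of families OR1 to OR8 and OR51 to OR56 were described in RNA from extracellular vesicles. They were taken from the count table by symbol, as OR followed by a family number, a subfamily of 1 or 2 letters and a gene number, with symbols ending in P left out. The rule found 320 of the 38167 genes of the table, in 11 families. It used names alone and no measured value.

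The vesicles came from the medium of Cal27 spheroids at day 14. Cal27 is an established human cell line from a squamous carcinoma of the tongue, labelled squamous epithelial. The spheroids had grown in a soft matrix of 3 mg/mL Matrigel (3 libraries) or a stiff one of 12 mg/mL (3 libraries), and matrix stiffness is the only stated difference between the groups. Total RNA of about 10 ng a library went into a directional kit with 9 PCR cycles. The line stands for 1 tumour, and the labels call the libraries of a group biological replicates without saying what was kept separate between them, so p-values measure the spread between these samples.

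Olfactory receptors are receptors with 7 membrane-spanning helices that detect odorants. Each olfactory sensory neuron of the nose expresses, as a rule, a single receptor gene from a single allele, and the signal runs through the G protein subunit encoded by GNAL, adenylyl cyclase ADCY3 and a cyclic-nucleotide-gated channel with the subunit CNGA2. Families 51 to 56 form the fish-like class I and families 1 to 14 class II. The genes stand in clusters on many chromosomes, usually with the whole coding sequence in a single exon, and squamous epithelium is not a known site of expression for most of them.

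The receptors share a short stretch at the inner end of the third helix, where an aspartate, an arginine and usually a tyrosine follow each other. A window of 61 coding bases, the read length in the labels, is shown around these codons for members that the results turn on, with the 9 bases of the codons in capitals. They are read 5′ to 3′ on the coding strand from GENCODE 29 transcripts (GRCh38). OR6S1 (chr14:20640696-20641691, minus strand) and OR1J4 (chr9:122519141-122520082, plus strand) had the most counts per kb among receptors with a short RefSeq gene span. OR1J4 lies inside the longer span of OR1J2. OR4D5 (chr11:123939617-123940573, plus strand) and OR8B4 (chr11:124423942-124424871, minus strand) were among the receptors of short span with the fewest. OR51E2 (chr11:4680171-4697853, minus strand) and OR2AT4 (chr11:75081753-75096890, minus strand) are receptors reported outside the nose. OR2A1 (chr7:144312079-144322737, plus strand) and OR2A42 (chr7:144228244-144239605, minus strand) show what a read of this length meets in a pair of near-identical copies.
OR6S1: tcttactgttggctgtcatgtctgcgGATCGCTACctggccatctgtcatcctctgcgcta
OR1J4: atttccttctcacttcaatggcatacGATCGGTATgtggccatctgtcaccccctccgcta
OR4D5: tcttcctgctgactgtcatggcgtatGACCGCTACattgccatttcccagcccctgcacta
OR8B4: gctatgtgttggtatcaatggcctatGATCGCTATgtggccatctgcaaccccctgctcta
OR51E2: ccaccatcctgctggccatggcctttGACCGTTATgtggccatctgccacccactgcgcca
OR2AT4: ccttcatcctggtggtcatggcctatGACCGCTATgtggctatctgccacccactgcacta
OR2A1: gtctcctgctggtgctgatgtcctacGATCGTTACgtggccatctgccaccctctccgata
OR2A42: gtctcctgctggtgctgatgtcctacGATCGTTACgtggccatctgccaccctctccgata
The windows of OR2A1 and OR2A42 were the same letter for letter. Over their 930 coding bases the copies differed once, at C285T (OR2A1 base, position counted from the A of the start codon, OR2A42 base), so most reads of this length from the coding part cannot be assigned to either by sequence.

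The libraries held 2445498 to 2977837 counts. Ribosomal RNA and mitochondrial genes took 111359, 151930 and 263539 counts in soft and 593596, 586576 and 685747 in stiff, and these groups did not overlap. The members took 9551, 9421 and 8932 counts in soft and 8197, 9056 and 8604 in stiff. That was 0.372% ± 0.0199 of a soft library and 0.302% ± 0.0119 of a stiff one (SD, n = 3 each).

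Nearly every member had counts. Of the 320, 317 (99.1%) were above 0 in every library, beside 93.9% of all genes in the table. OR5I1 and OR5T3 were at 0 in stiff replicate 1, and OR6C70 was at 0 in soft replicate 1. A count of 0 still allows 3 counts, and these limits cover counting error only. Counts were low as well as widespread. A member's total over the 6 libraries ran from 25 to 843 with a median of 116, and 187 members had at least 10 counts in each library. Whether the counts came from receptor RNA, from other RNA over the same bases or from DNA was not tested.

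Counts followed the length of the gene model and not that of the coding sequence. Coding length varied little, from 909 to 1125 bases with a median of 942. Across 315 members its Spearman correlation with counts was 0.0194, while that of exon length was 0.678 (319 members) and that of the RefSeq gene span 0.724 (319 members). Pearson's r was -0.0713 for coding length, 0.706 for exon length and 0.273 for the span. All these points share the same 6 libraries. The 147 members whose RefSeq gene spans at most 1200 bases, called compact here, had a median of 72 counts in all, and the 172 with a longer span had a median of 202.5. The annotation the authors counted on is not given in the sources used here, so lengths are most secure for the compact members. Their median span was 945 bases.

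On exon length, the median member had 12.2, 12.0 and 11.7 counts per kb in soft and 10.2, 11.3 and 10.7 in stiff. These values are not scaled for depth, and the soft libraries stood above the stiff ones without overlap. The compact members had a median of 13.9, 13.7 and 12.5 counts per kb of span in soft and 11.5, 13.3 and 11.7 in stiff, and here the groups overlapped. Within a library the middle of the compact members lay, averaged over the 6 libraries, between a lower quartile of 8.44 and an upper quartile of 17.8 counts per kb.

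**Figure D1:**
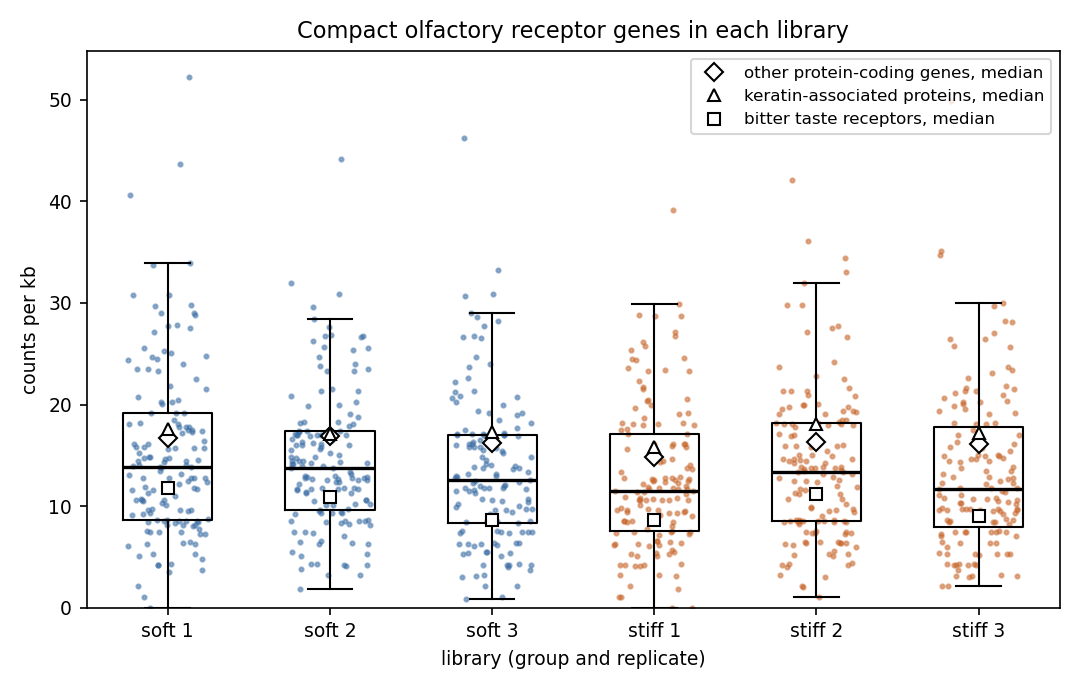
Counts per kb of RefSeq gene span (vertical axis) of the 147 compact receptors in each library, not scaled for depth. Points are genes, boxes give the quartiles with the median as a bar, whiskers reach the last gene within 1.5 box lengths, and open symbols give the medians of other gene sets. The symbols of other protein-coding genes are per kb of exon, and those of the remaining sets per kb of span. In each of the 6 libraries the receptors' median lies between that of bitter taste receptors and those of keratin-associated protein genes and other protein-coding genes.

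The rest of the transcriptome was not far above this level. The 18509 other protein-coding genes had a median of 14.9 to 16.9 counts per kb of exon across the libraries. Between 17.5% and 22.9% of them lay above the members' 95th percentile in a library, with a mean of 20.9% ± 2.03 (SD, n = 6 libraries), and between 69.5% and 73.4% lay above the members' median. Read the other way, 45 of the 147 compact receptors, counted per kb of span, reached at least the median of the other protein-coding genes. With exon length on both sides fewer did. The compact members' upper quartile was then 16.19 counts per kb and the other genes' median 16.23 (means of each gene over the 6 libraries). Among gene sets of like size, compact receptors of families 9 to 14 (37 genes) averaged 13.5 counts per kb over the libraries' medians and compact members of the main families 12.8. Bitter taste receptors, also single-exon receptor genes (17 compact genes), averaged 10.0, and keratin-associated protein genes, which build the hair shaft (84 compact genes), averaged 17.2. The 12 compact receptor symbols ending in P, which mark pseudogenes, averaged 16.7.

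Genes of the cell line's own type were set beside the members on the same scale. Of 20 squamous epithelial markers, 16 lay above the members' median in all 6 libraries and 2 above their 95th percentile, with a median of 20.7 counts per kb of exon. In a single library 71.0% of other protein-coding genes lay above that median on average, and 20.9% above that percentile. The basal keratin KRT5 had 19.7 and its partner KRT14 31.1, while SFN, the epithelial 14-3-3 sigma protein, had 46.1. Of 15 abundant messengers, 7 lay above the members' median in all 6 libraries and 2 above their 95th percentile, with a median of 14.0. ACTB, cytoplasmic actin, was 1 of these 2 with 36.4, and LDHA was the lowest of the list with 7.57. The elongation factor messenger EEF1A1, among the most abundant in growing cells, had 6.56 ± 0.168 in soft and 13.1 ± 1.262 in stiff (SD, n = 3 each), on either side of the members' medians of 12.0 ± 0.226 and 10.7 ± 0.521. Its exon length of 5948 bases joins the exons of all its transcripts, beside a median of 1216 for the members. Its place beside them therefore depends on the lengths used.

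Genes that work with the receptors in the nose had counts as well. OMP, a marker of mature olfactory neurons, had 51.2 counts per kb on an exon length of 492 bases, GNAL 26.4, ADCY3 26.9 and CNGA2 16.4. RTP1, which carries receptors to the cell surface, had 37.4. Others of these lists were lower, with STOML3 at 10.9, GRK3 at 12.2 and RTP3 at 2.90. Of the 16 genes of olfactory transduction 12 lay above the members' median in all libraries and 3 above their 95th percentile. Of the 14 for receptor trafficking and choice these were 11 and 5. Of 10 markers of olfactory neurons and their supporting cells, which share some of these genes, they were 6 and 4. Beside these counts, 71.0% of other protein-coding genes lay above the members' median in a single library on average, and 20.9% above the percentile. The lists are small, and whether they differ from those shares was not tested. Fibroblast markers had a median of 10.2 counts per kb, leukocyte markers 13.3 and endothelial markers 15.0, levels near the members' own, for cell types other than the labelled one. None of the markers in these 3 lists was at 0 in any library.

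Families differed in level. Pooled over their compact members, OR1 had 24.0, 21.5 and 18.9 counts per kb in soft and 17.6, 20.9 and 20.5 in stiff (mean 20.6 ± 2.24, SD, n = 6 libraries). It was the highest family with more than 3 compact members, by this pooled value and by the median of its compact members (19.7). OR8 had the lowest pooled value, with 14.3, 12.7 and 9.36 in soft and 9.26, 9.68 and 10.1 in stiff (mean 10.9 ± 2.08). The ranges of these families did not overlap. The compact members of OR1 had a median GC content of 48.7% and those of OR8 42.7%. Family was not separated from genomic cluster or base composition, so these levels cannot be read as traits of a family.

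OR7, with 3 compact members, had a pooled mean of 18.3, with libraries that overlapped those of OR1 and stood above those of OR2 (mean 14.7). OR56, OR6, OR52, OR4 and OR51 lay from 12.7 to 13.7, and their values overlapped between libraries. OR5 had 11.9. The order at the lower end depended on the measure. By the median of its compact members OR51 was lowest (9.76), below OR6 (10.65), OR8 (10.75) and OR5 (10.91). The highest compact member of OR6 had 42.2 counts per kb and that of OR51 had 26.1. The class I families thus had no common place in the order, with OR52 at 11.4 and OR56 at 13.7 by this median. OR3 had no compact member, and its 3 genes had a median of 21.1 counts per kb of exon.

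Members fell into 32 genomic clusters when a gap of over 1 Mb ended a cluster. Of these, 16 held 5 or more members, 291 in all, and 8 members stood alone. The largest was the class I array on chromosome 11 (chr11:4367263-7830840) with 63 members, which also holds a few class II genes. A further 45 members stood near the centromere of the same chromosome (chr11:54603069-56989843), and 36 near the end of the long arm of chromosome 1 (chr1:247449118-248655528).

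The clusters spread further apart than the families. Of the 14 clusters with at least 3 compact members, the highest was that of chromosome 14 (chr14:19743571-22644352, 7 compact members) with 29.6, 23.9 and 22.4 counts per kb in soft and 24.3, 25.3 and 20.4 in stiff. The cluster of chromosome 9 (chr9:122447433-122801073, 10 compact members) followed with 25.6, 23.7 and 21.6 against 19.7, 22.6 and 23.5. These 2 clusters overlapped each other. Their lowest library (19.7) stood above the highest of the next cluster by mean, that of chromosome 1 (18.9), while that of chromosome 17 reached 21.4 in 1 library.

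The lowest were a cluster of chromosome 12 (chr12:55244609-55575612, 4 compact members) and the distal cluster of chromosome 11 (chr11:123753580-124571374, 7 compact members). The former had 4.26, 11.2 and 4.79 counts per kb in soft and 7.99, 11.4 and 7.99 in stiff. The latter had 11.6, 9.84 and 10.1 against 6.36, 8.93 and 8.78. Every library of both clusters lay below every library of the chromosome 14 and chromosome 9 clusters. The array of 63 members had a mean of 12.9 and the centromeric one of 45 members 10.98.

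**Figure D2:**
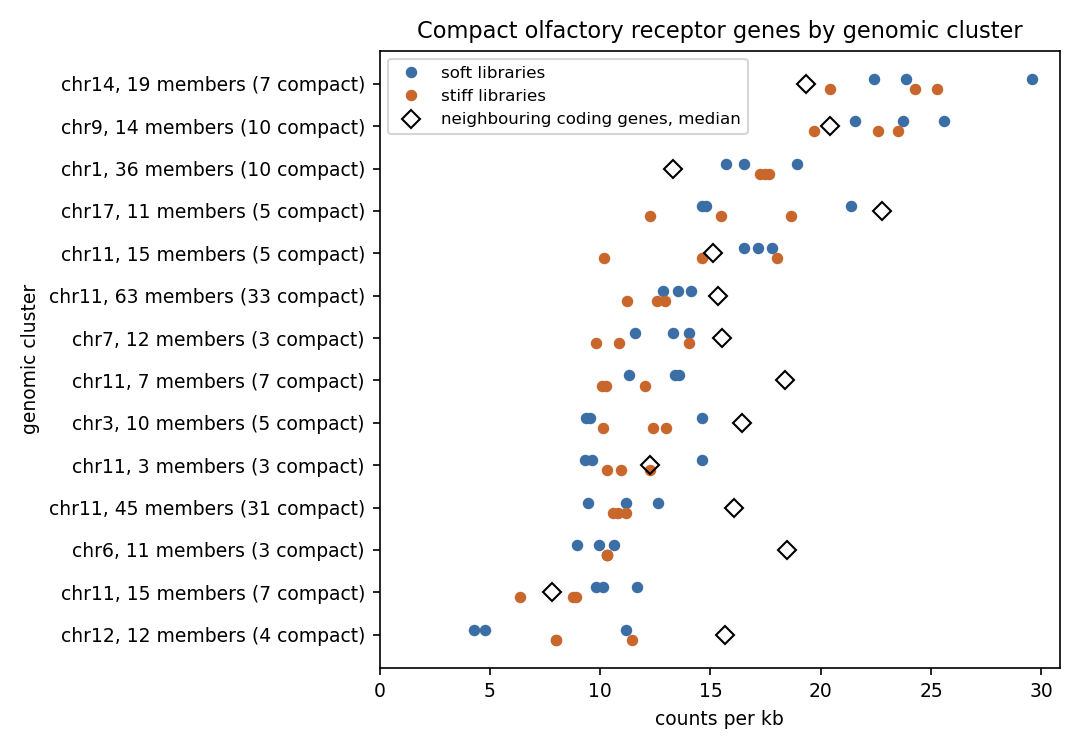
Counts per kb of span pooled over the compact receptors of each genomic cluster (horizontal axis, not scaled for depth), with 1 point a library, for the 14 clusters with at least 3 compact members. Diamonds give the median counts per kb of exon of other protein-coding genes in or within 2 Mb of the cluster; the chromosome 14 and chromosome 9 clusters lie furthest right and those of chromosome 12 and distal chromosome 11 furthest left.

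Protein-coding genes in or within 2 Mb of a cluster were read beside it. They had a median of 19.3 counts per kb of exon around the chromosome 14 cluster and 20.4 around that of chromosome 9. Around the distal chromosome 11 cluster they had 7.82, the lowest of the 14. The cluster of chromosome 17 (chr17:3062669-3433841) had 16.2 with neighbours at 22.8, and that of chromosome 12 had 7.94 with neighbours at 15.6, so receptors and neighbours did not always go together. Across the 14 clusters the Spearman correlation of receptors with neighbours was 0.354 and Pearson's r 0.490. The points share the 6 libraries, and the lengths on either side come from different gene models.

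Base composition moved with the counts. Among 146 compact members with a transcript sequence, the Spearman correlation of GC content with counts per kb was 0.410. The median was higher in each GC class than in the one before. It was 10.0 counts per kb under 40% GC (13 genes), 11.2 from 40 to 45% (52 genes), 13.3 from 45 to 50% (59 genes), 16.2 from 50 to 55% (19 genes) and 24.5 above 55% (3 genes). On exon length, all members had medians of 9.28, 10.8, 12.9, 15.5 and 26.4 counts per kb in the same classes, and other protein-coding genes had 9.76, 11.8, 14.4, 17.5 and 27.8. The members lay below the other genes in each class, by less than over all classes together (11.3 and 16.2). The median GC content was 43.0% for the members and 49.1% for the other genes, and its part in the levels was not tested.

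Within a GC class, levels also differed between chromosomes, and chromosome 14 stood high in both classes read. Its 5 compact members under 45% GC had a median of 21.3 counts per kb (range 17.3 to 22.4), and the 42 of chromosome 11 in the same class had 10.4 (range 5.50 to 17.6). At 45% and above, the 9 compact members of chromosome 9 had 24.3 and the 43 of chromosome 11 had 11.4 (range 4.35 to 26.1). The 2 of chromosome 14 had a median of 34.5 (26.8 and 42.2). On chromosome 1 the order was the other way, with 17.2 under 45% (2 genes) and 14.5 at 45% and above (11 genes).

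**Figure D3:**
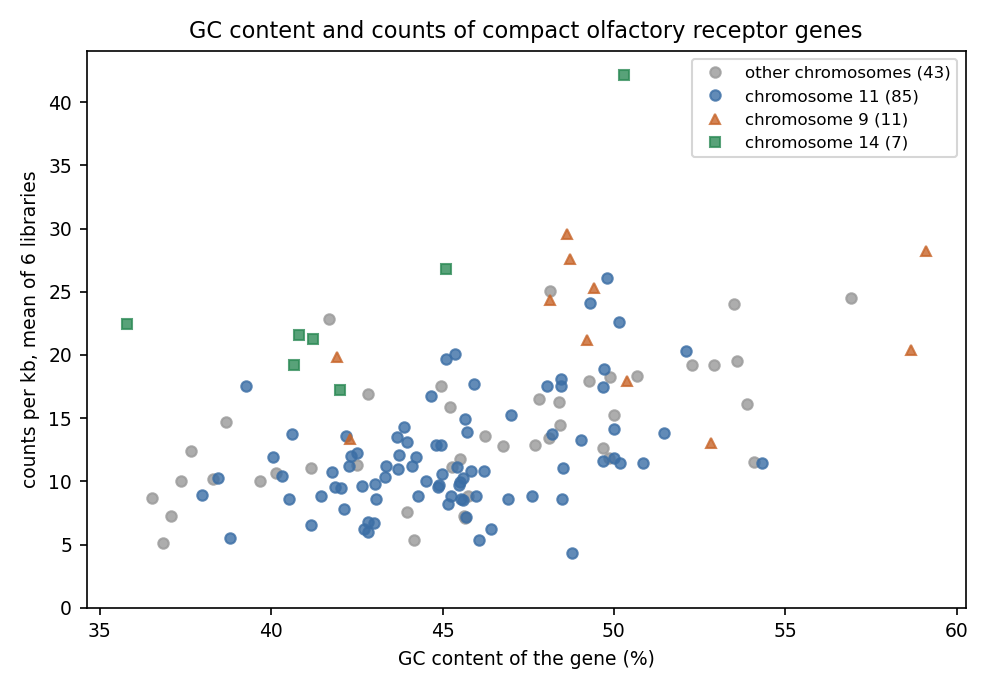
Mean counts per kb of span over the 6 libraries (vertical axis) against GC content in percent (horizontal axis) for the 146 compact receptors with a transcript sequence, with symbols by chromosome. The 7 genes of chromosome 14 lie above nearly all genes of chromosome 11 with the same GC content.

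The order of single members was related between the groups without being the same. Across the 147 compact members the soft mean and the stiff mean of counts per kb had a Spearman correlation of 0.727, with points that share libraries and gene lengths. OR6S1 was the highest compact member (chosen after its values were seen), with 52, 44 and 46 counts in soft and 39, 36 and 35 in stiff, or 42.2 counts per kb. Without it the chromosome 14 cluster had a mean of 21.3 in place of 24.3. OR4D5 was the lowest, with 8, 4 and 6 against 1, 2 and 4 counts, or 4.35 per kb. The ratio of these extremes was 9.69.

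OR1J4 had 29, 26 and 25 counts in soft and 23, 17 and 47 in stiff (29.6 per kb), and its gene lies inside the span of OR1J2. OR8B4 had 8, 6 and 5 against 5, 2 and 4 (5.38 per kb). In these unscaled counts the single highest stiff value of OR1J4 made its groups overlap.

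By exon length the order was led by other genes. The most counts per kb of exon were those of OR1J2 (81.4), OR6C74 (64.2), OR1F1 (64.0), OR4F3 (52.9) and OR1B1 (49.9). Their GENCODE exon lengths were 942 to 1105 bases but RefSeq gives them spans of 12017 to 132995 bases, so these values rest on a length that the references give differently. The fewest were those of OR52I2 (1.12), OR52I1 (1.97), OR8A1 (2.44), OR4S2 (2.56) and OR5AU1 (2.74). Of these OR52I1 and OR5AU1 are compact in RefSeq, and on their spans of 975 and 1199 bases they had 5.98 and 19.2 counts per kb.

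Near-identical copies had similar counts in some pairs and unequal counts in others. OR4F16, OR4F29 and OR4F3 share their 936 coding bases letter for letter and had 297, 50 and 316 counts in all, with RefSeq spans of 44026, 939 and 27889 bases. OR4F21, which differs from them at 3 coding bases, had 41 counts on a span of 939 bases. OR2A1 had 115, 120 and 108 counts in soft and 116, 115 and 122 in stiff. Its copy OR2A42 had 133, 143 and 123 against 109, 109 and 128, and the totals of the 2 copies were 696 and 745.

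OR2T2 and OR2T35, which differ at 6 coding bases, had 259 and 171 counts in all, and OR2T29 and OR2T5, which differ at 2, had 145 and 113. How reads that match several genes were treated is not given in the sources used here, so single values of such genes are uncertain. In all, 27 members encode a protein at least 95% identical to that of another member. On exon length their mean library median was 12.0 counts per kb, beside 11.3 for the other 292.

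The stiff matrix was then compared with the soft one. The members' summed CPM (counts scaled to library size, here with TMM factors) was 3503, 3412 and 3368 in soft and 3370, 3399 and 3271 in stiff (3428 ± 68.8 and 3347 ± 67.1, SD, n = 3 each). The groups overlapped, with a ratio of stiff to soft of 0.976. On library totals alone the values were 3906, 3730 and 3509 against 3039, 3123 and 2889, a ratio of 0.812 without overlap. With ribosomal RNA and mitochondrial genes left out of the totals the ratio was 0.966 and the groups overlapped.

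No member passed the test between the groups. Of the 320, 265 had enough counts to be tested, and edgeR's quasi-likelihood test called 0 at an adjusted p under 0.05, beside 0.451% of all 31074 genes tested. Limma-voom called 0 members beside 0.293% of all genes, and edgeR with a replicate block 0 beside 0.557%. DESeq2's own filter on low means gave no member an adjusted p. With its p-values adjusted over every gene fitted, an alternative chosen after seeing the data, DESeq2 called 0 members beside 0.138% of all genes. On library totals alone edgeR called 24 members (9.06%), all lower in stiff, beside 13.4% of all genes called lower. An unadjusted p under 0.05 was found for 21 members (7.92%), beside 9.51% of all genes. TMM-scaled values did not overlap between the groups for 33 members, 14 higher and 19 lower in stiff, which is 12.5% beside 14.1% of all genes. The members' median log2 fold change was -0.04 and that of all genes -0.0048. The 55 members not tested had 25 to 75 counts in all, and 47 of them are compact.

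**Figure D4:**
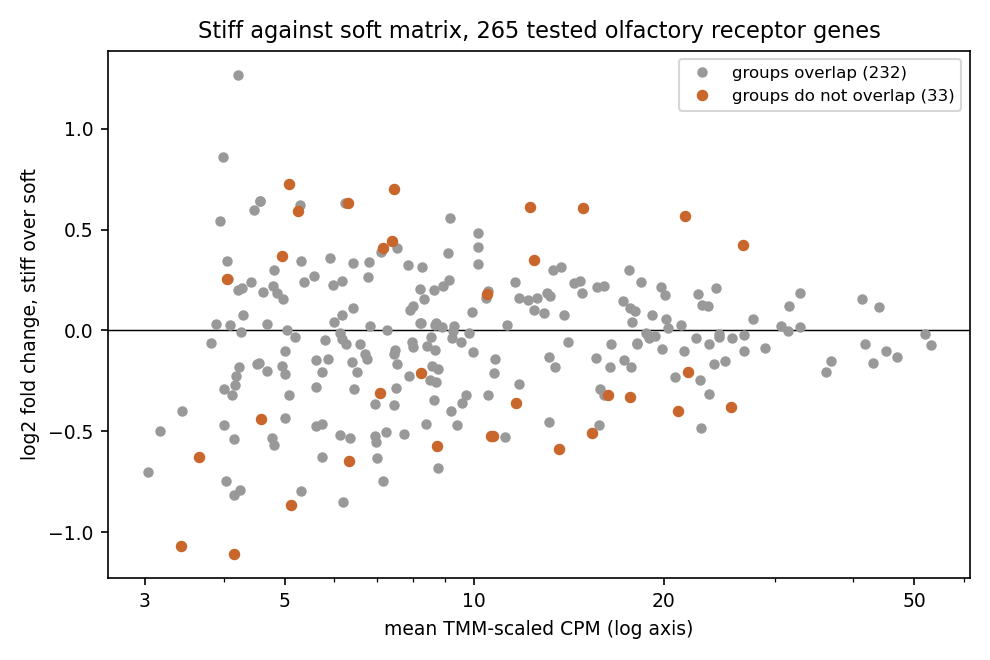
Log2 fold change of stiff over soft from edgeR (vertical axis) against the mean TMM-scaled CPM (horizontal log axis) for the 265 tested receptors. The 33 receptors whose groups do not overlap are in orange, and they lie on both sides of 0.

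The lowest adjusted p of a member was 0.206, that of OR1A1 by edgeR. OR1A1, a broadly tuned odorant receptor, had 50, 45 and 47 counts in soft and 60, 68 and 72 in stiff, a log2 fold change of 0.57 ± 0.193 (SE). Its groups did not overlap.

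The folds furthest from 0 belonged to members with few counts. OR5M3 had 17, 14 and 15 counts in soft and 11, 3 and 6 in stiff (log2 fold change -1.11). OR6M1 had 10, 16 and 12 against 3, 8 and 6 (-1.07), and OR2S2 had 19, 16 and 19 against 6, 13 and 9 (-0.87). The groups of these 3 did not overlap.

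In the other direction OR51F2 had 4, 15 and 1 counts against 20, 15 and 11 (log2 fold change 1.27, edgeR adjusted p = 0.226). Its soft replicate 2 lay within the stiff values, and without that library edgeR called it, with a log2 fold change of 2.63 and an adjusted p of 0.022. Over its alternatives the adjusted p ran from 0.022 to 1.0. OR8I2 had 8, 4 and 11 against 9, 14 and 17 (0.86), and OR52N2 had 8, 11 and 12 against 15, 22 and 12 (0.73).

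Receptors reported outside the nose were read one by one. None of the 12 was called by edgeR with TMM, while on library totals alone OR51E1 (adjusted p = 0.0127) and OR7D4 (0.00523) were. OR51E1 and OR51E2, neighbours in the class I array known from prostate, had fold changes of opposite sign, and neither passed the test. OR51E1 had 42, 40 and 51 counts in soft and 25, 27 and 32 in stiff (log2 fold change -0.59 ± 0.243, edgeR adjusted p = 0.362). OR51E2, which responds to short-chain fatty acids, had 41, 31 and 24 against 47, 47 and 45 (0.61 ± 0.234, edgeR adjusted p = 0.298). Neither pair of groups overlapped.

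OR2AT4, a sandalwood-odorant receptor reported in keratinocytes, had 57, 46 and 30 counts in soft and 60, 45 and 34 in stiff (log2 fold change 0.14, and -0.13 on library totals alone). OR7D4, the androstenone receptor, had 77, 79 and 62 against 37, 67 and 44 (-0.48). The groups of both overlapped. OR1D2, reported in sperm, had 62, 60 and 79 against 52, 61 and 74 (-0.03), a value whose sign changed with single libraries left out.

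Among the others, OR2W3 had 19, 28 and 29 counts against 22, 16 and 25 and, at 24.5 per kb, the highest level of the compact genes in this list. OR51B4 had 15, 11 and 13 against 15, 8 and 10, and OR51B5 had 31, 26 and 28 against 23, 15 and 23. OR1A2 had 8, 11 and 7 against 15, 12 and 9. The near-identical OR2A4 and OR2A7 had 54, 59 and 39 against 50, 51 and 51 and 73, 60 and 49 against 48, 72 and 41.

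Genes outside the family did pass the same edgeR test, whose share over all genes was 0.451%. Of the 16 olfactory transduction genes 1 rose, CNGA2, with 33, 49 and 22 counts in soft and 67, 62 and 46 in stiff (log2 fold change 0.83 ± 0.220, edgeR adjusted p = 0.0468). That call was lost without soft replicate 1 or 3 or stiff replicate 1 or 2 (adjusted p 0.152, 0.283, 0.315 and 0.164 by edgeR), and with limma-voom (0.147). It was also lost on library totals alone (0.0754 by edgeR) and with DESeq2 adjusted over every gene fitted (0.671). Of 13 tested genes for receptor trafficking and choice 0 passed. Of 20 squamous markers KRT14 rose (0.69 ± 0.174, edgeR adjusted p = 0.0281), a call lost without the same libraries (adjusted p 0.158, 0.1096, 0.137 and 0.320 by edgeR) and with limma-voom. The KRT14 call was also lost on library totals alone (0.0873 by edgeR) and with DESeq2 adjusted over every gene fitted (0.496). Of 15 abundant messengers 3 rose, among them EEF1A1 with 40, 39 and 38 against 70, 78 and 85 counts (1.07 ± 0.194, edgeR adjusted p = 0.000115; highest over its alternatives 0.0073). The stiff libraries also held more ribosomal RNA and mitochondrial counts, and the part of that difference in these results was not tested.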

How the data were processed

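Vesicle RNA of 6 libraries was measured by directional RNA-seq. The deposited table gives raw read counts per gene; per the submitters' processing notes the tools included FastQC 0.11.7, Trim Galore 0.4.2, cutadapt 1.9.1, STAR 2.6.1e, featureCounts 1.6.2 and DESeq2 1.26.0, with the build hg38. The counting annotation, its strand setting and its treatment of reads that match several genes are not given in the sources used here. Groups and replicate numbers come from the sample titles. Columns were matched to samples through the descriptions; the column of the sample titled stiff replicate 1 is itself named as replicate 2, as is that of stiff replicate 2, so stiff replicate numbers, and the replicate block that uses them, are uncertain.

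Counts were fitted across all genes with edgeR 4.0.16 (TMM, filterByExpr, robust quasi-likelihood, group as the term) in R 4.3.3, with Benjamini-Hochberg adjustment and a threshold of 0.05. DESeq2 1.42.0, limma-voom (limma 3.58.1), library totals, other filters, a replicate block and leaving out each library were alternatives. The SE given with an edgeR log2 fold change is its size divided by the square root of the test's F statistic. Scripts were tested on simulated data. Exon and coding lengths, GC content (longest transcript) and coding sequences came from GENCODE 29, and positions and gene spans from RefSeq (GRCh38.p14), both on GRCh38; 319 of 320 members matched each. Coding sequences were compared with edlib 1.3.9.post1. Levels of families and clusters, sums over members and correlations carry no test.

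Members named are those called, the 5 highest and the 5 lowest per kb of exon, the 3 largest folds each way, the receptors reported outside the nose, the most identical pairs and the extreme families and clusters; compact extremes were added after values were seen, as was the limit of 1200 bases. Members and lists were chosen with earlier results of these data known. With 3 libraries a group and few counts a gene, small differences were not detectable at this depth.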

Additional observations from a re-analysis of the deposited data

How the results depend on the processing

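The members' summed level (ratio of stiff to soft 0.976) was 0.812 on library totals alone and 0.968 to 0.987 with each library left out. Library totals alone called 24 members, all lower in stiff, and 4194 of all genes, with a median log2 fold change of -0.31 for members and -0.27 for all genes. Limma-voom called 91 of all genes in place of 140. DESeq2 called 67, with an adjusted p for 2157 of 31074 genes and for 0 of 265 members, and 43 with its p-values adjusted over every gene fitted. Leaving out each library gave 0 to 1 members (OR51F2, without soft replicate 2) and 60 to 136 genes of all. The share of other coding genes above the members' 95th percentile, 20.9%, was 23.2% on coding length and 27.3% among compact genes by span, and 20.5% to 21.5% with each library left out. The median counts per kb, stiff over soft, was 0.899 and ran from 0.876 to 0.920 with each library left out. A gap of 0.5 Mb gave 40 clusters and one of 2 Mb gave 30. OR5M3, OR6M1 and OR2S2 passed the threshold on library totals alone and under none of the other alternatives run (lowest adjusted p 0.0245, 0.0417 and 0.0382; highest 1.0 for each). Of the 18 members whose fold changes were recomputed, 5 changed sign, none of them called under any alternative. On library totals alone OR2AT4 was at -0.13 and OR2A4 at -0.19. With each library left out, OR2AT4 ran from -0.13 to 0.37, OR51B4 from -0.49 to 0.0476, OR1D2 from -0.16 to 0.12, OR2A4 from -0.061 to 0.19 and OR2A7 from -0.34 to 0.073. Deviations of same-numbered libraries correlated between -0.00363 and 0.00346, and those of differently numbered ones between -0.00793 and 0.00529. With uncertain stiff replicate numbers and few counts a gene, these values cannot show whether the samples were paired. The replicate block called 0 members and 173 genes of all. Compact members alone (ratio 0.979), compact members without another gene over their span and a span limit of 1000 bases (0.918 and 0.902 for the ratio of medians) were chosen after seeing the data. Depth limits single members: their median was 18 to 22 counts a library.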
